A study of Mus musculus with 25 samples.

Results

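Axon guidance genes encode the secreted and membrane-bound cues that steer a growing axon, and the receptors that read them. The accessible chromatin around 41 of these genes was followed in cultured mouse astrocytes that were being turned towards neurons. Chromatin accessibility was measured by ATAC-seq, in which a transposase cuts open DNA, so that a peak marks a stretch where nucleosomes leave the DNA exposed. A peak was taken as a site of a guidance gene when the nearest start of a protein-coding transcript belonged to that gene and lay within 100 kb of the peak edge. By this rule 173 of the 45672 peaks were sites of 40 of the 41 genes, and L1cam had none. Of the 173 sites, 63 lay within 3 kb of the start site (promoter sites) and 110 lay farther away (distal sites). The assignment is by position only, and no contact between a distal site and its gene was measured. Sites are numbered along the chromosome within each gene, so that Robo1 site 2 is the second peak assigned to Robo1.

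The cells were primary cultured astrocytes from the cerebral cortex of wild-type C57BL/6J mice. The sources differ on the dissection, since the labels name grey matter and the published methods name white matter, and on the age, given as postnatal day 5 to 6 for the samples and as day 6 to 8 for the series. They were expanded either with EGF+bFGF (10 ng/ml of each) or with bFGF alone (10 ng/ml), and then transduced with retroviruses. In each culture there were 4 virus groups, namely Neurog2+Hmgb2, Neurog2, Hmgb2 and Control, which made 8 groups and 25 libraries. Groups held 3 libraries each, or 4 in the case of the EGF+bFGF Hmgb2 group. Neurog2 is a proneural transcription factor that drives neuron formation, Hmgb2 is a chromatin protein that bends DNA, and the Control virus carried a fluorescent reporter alone. By the paper, the Neurog2 virus carried the reporter dsRED, the Hmgb2 and Control viruses carried GFP, and Neurog2+Hmgb2 cells received both viruses. Neurog2 against Control thus differs in the reporter too, and Neurog2+Hmgb2 against Neurog2 or Control in the number of viruses. The design cannot tell these apart from the factors. All viruses used the constitutive CAG promoter, and retroviruses of this kind reach the genome only of cells that divide. All cells, Controls included, were kept in serum-containing astrocyte medium, sorted on the reporter and collected 48 h after transduction. The labels do not say whether replicates came from separate cultures, so a p-value here sets a difference against a spread that may be technical only. ATAC-seq of a pool of cells cannot tell apart more cells with an open site and a wider opening in every cell.

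The values were regularized log (rlog) values, a log2 scale on which 1 unit is a doubling of normalised reads, with the differences of weakly covered peaks drawn towards 0. They keep no read counts, so the depth behind each value is unknown. The median over all peaks ran from 4.557 to 4.675 among the 25 libraries. The mean correlation of a library with the others of its group ran from 0.9357 to 0.9788, the lowest being Neurog2 replicate 2 in bFGF culture, with 0.9463 the next. The peak over the Neurog2 coding exon, which also collects reads from the viral insert, was at 10.6 to 16.06 in the 12 libraries with Neurog2 virus and at 6.76 to 12.7 in the 13 without. In 2 of the 13 it exceeded the lowest of the 12. No guidance site matched the coding sequence of Neurog2 or Hmgb2. Of the astrocyte markers, 8 of 10 had a promoter peak, with a list mean of 5.99, and S100b and Aldoc had none. In the Neurog2 average 1 of these 8 promoters rose and 0 fell, and none passed in a comparison of a Neurog2 group with Control. Of the neuron markers, 4 of 8 had a promoter peak, 2 of them higher with Neurog2+Hmgb2 than with Control in EGF+bFGF culture and 2 higher in the Neurog2 average. The 4 promoters averaged 6.11 to 6.24 in those Neurog2+Hmgb2 libraries and 5.87 to 6.12 in the Control libraries. Markers of other cell types had promoter peaks as well, namely 5 of 6 for the oligodendrocyte lineage (list mean 4.98, Sox10 without one), 3 of 6 for fibroblasts and mural cells (5.16), 2 of 6 for microglia (4.15) and 1 of 5 for endothelial cells (4.43). Aif1, Cx3cr1, Itgam and P2ry12 of microglia and Pecam1, Cdh5, Tek and Cldn5 of endothelial cells had none. None of the promoters of these other cell types passed in the Neurog2 average or in a comparison of a Neurog2 group with Control. The part of other cell types in the results was not tested.

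Guidance cues work in pairs of ligand and receptor. Semaphorins bind plexins, the secreted class 3 semaphorins mostly with a neuropilin as the co-receptor, and usually collapse the growth cone. Slits bind Robo receptors and keep axons from crossing or recrossing the midline. Netrins attract axons through Dcc and repel them through Unc5 receptors. Ephrins are tethered to the cell surface, and they signal to Eph receptors on the neighbouring cell and back again. L1-family and contactin proteins hold axons together and join these receptors in complexes. The same molecules act in cell migration and in astrocytes, where Eph and ephrin proteins meet at contacts with synapses.

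The sites whose accessibility differed most with Neurog2 are shown first, as the 300 bases at the centre of each peak on the plus strand of mm10 (GRCm38). They comprise all 3 sites that passed the test with a difference above 1 in any comparison, and the sites among the 4 largest rises and the 4 largest falls with Neurog2. Not every such site is shown. Capitals mark CAGATG and CAGCTG, the E-boxes that proneural factors bind, and the octamer ATGCAAAT of POU factors, on either strand, so that CATCTG is CAGATG read from the other strand. The 4 sites that rose come before the 3 that fell.
Epha3 site 1: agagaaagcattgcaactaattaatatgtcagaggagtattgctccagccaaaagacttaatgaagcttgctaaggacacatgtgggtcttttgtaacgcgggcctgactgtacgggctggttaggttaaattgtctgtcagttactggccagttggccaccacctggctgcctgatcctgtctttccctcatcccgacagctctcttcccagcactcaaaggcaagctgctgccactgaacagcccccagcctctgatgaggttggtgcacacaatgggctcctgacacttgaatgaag
Epha3 site 4: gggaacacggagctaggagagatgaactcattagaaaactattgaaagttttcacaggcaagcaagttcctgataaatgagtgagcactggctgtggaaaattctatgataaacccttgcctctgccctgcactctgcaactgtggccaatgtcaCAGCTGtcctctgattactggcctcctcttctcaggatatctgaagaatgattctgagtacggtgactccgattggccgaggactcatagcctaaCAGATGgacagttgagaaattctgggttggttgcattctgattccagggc
Sema3e site 4: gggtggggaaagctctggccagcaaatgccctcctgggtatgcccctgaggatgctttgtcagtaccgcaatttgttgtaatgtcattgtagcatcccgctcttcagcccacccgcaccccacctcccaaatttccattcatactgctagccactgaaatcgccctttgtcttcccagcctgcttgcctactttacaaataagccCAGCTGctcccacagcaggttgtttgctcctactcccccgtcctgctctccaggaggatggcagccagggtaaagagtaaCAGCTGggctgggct
Sema6d site 4: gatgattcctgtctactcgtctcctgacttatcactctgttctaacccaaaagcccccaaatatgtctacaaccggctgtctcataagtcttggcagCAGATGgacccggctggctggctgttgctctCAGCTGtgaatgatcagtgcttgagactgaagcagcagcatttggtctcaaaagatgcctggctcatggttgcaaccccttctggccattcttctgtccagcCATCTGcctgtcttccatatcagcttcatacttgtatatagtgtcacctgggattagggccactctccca
Slit3 site 1: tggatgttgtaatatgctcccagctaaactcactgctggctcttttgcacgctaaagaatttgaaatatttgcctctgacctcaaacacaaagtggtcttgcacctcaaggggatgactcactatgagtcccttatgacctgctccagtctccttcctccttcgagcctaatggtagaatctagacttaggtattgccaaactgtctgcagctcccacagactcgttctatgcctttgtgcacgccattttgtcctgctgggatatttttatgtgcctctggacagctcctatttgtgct
Unc5c site 4: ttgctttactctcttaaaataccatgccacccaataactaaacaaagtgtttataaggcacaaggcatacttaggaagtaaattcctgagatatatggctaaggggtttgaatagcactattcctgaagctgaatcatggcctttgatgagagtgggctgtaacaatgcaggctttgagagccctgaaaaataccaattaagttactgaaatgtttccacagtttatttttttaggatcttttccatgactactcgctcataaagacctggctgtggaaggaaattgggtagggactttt
Plxnb1 site 2: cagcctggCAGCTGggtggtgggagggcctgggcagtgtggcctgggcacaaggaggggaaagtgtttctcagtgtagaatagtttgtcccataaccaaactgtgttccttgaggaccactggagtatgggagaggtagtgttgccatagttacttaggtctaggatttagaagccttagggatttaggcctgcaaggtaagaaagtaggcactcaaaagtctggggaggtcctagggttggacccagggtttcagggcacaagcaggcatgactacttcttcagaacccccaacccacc
Epha3 site 1 (chr16:63806460-63806759) had no capitals, Epha3 site 4 (chr16:63868065-63868364) had 1 CAGCTG and 1 CAGATG, and Sema3e site 4 (chr5:14039150-14039449) had 2 CAGCTG. Sema6d site 4 (chr2:124524244-124524543) had 2 CAGATG and 1 CAGCTG. Among the sites that fell, Plxnb1 site 2 (chr9:109098162-109098461) had 1 CAGCTG, while Slit3 site 1 (chr11:35066092-35066391) and Unc5c site 4 (chr3:141509763-141510062) had none of these motifs. The Slit3 and Unc5c sites each held 1 TGANTCA, a looser form of the element that AP-1 factors bind, in which N is C or G. The Slit3 match was TGACTCA and the Unc5c match was TGAATCA, which is not that element. TGANTCA is left in lower case because it was searched for only after the sequences had been seen.

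Promoters of guidance genes were open in Control astrocytes. Of the 41 genes, 37 had a promoter site, and Cntn2, Ntn4 and Sema4d had distal sites alone. Accessibility per length, the rlog value less the log2 of the peak length in kb, averaged over the 6 Control libraries of both cultures, had a median of 5.96 over the 37 leading promoters, against 6.16 over 12268 genes with a promoter peak, whose middle spans 5.80 (lower quartile) to 6.54 (upper quartile). The highest were those of Epha7 (6.98 ± 0.221, SD, n = 6), an Eph receptor, of Unc5b (6.98 ± 0.23) and Unc5c (6.93 ± 0.161), both netrin receptors, and of Epha5 (mean 6.81). Their means lay within 1 SD of each other. The lowest were those of Epha3 (5.27 ± 0.158), of Nfasc (mean 5.33), which organises the axon initial segment, and of Nrp1 (mean 5.46), a neuropilin. Their ranges of 1 SD overlapped too. By family the median per kb was 6.15 for Eph-ephrin, 6.09 for netrin, 5.98 for plexin-semaphorin with neuropilins, 5.85 for Robo-Slit and 5.43 for L1 and contactin promoters. The order of the families was not tested.

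**Figure D1:**
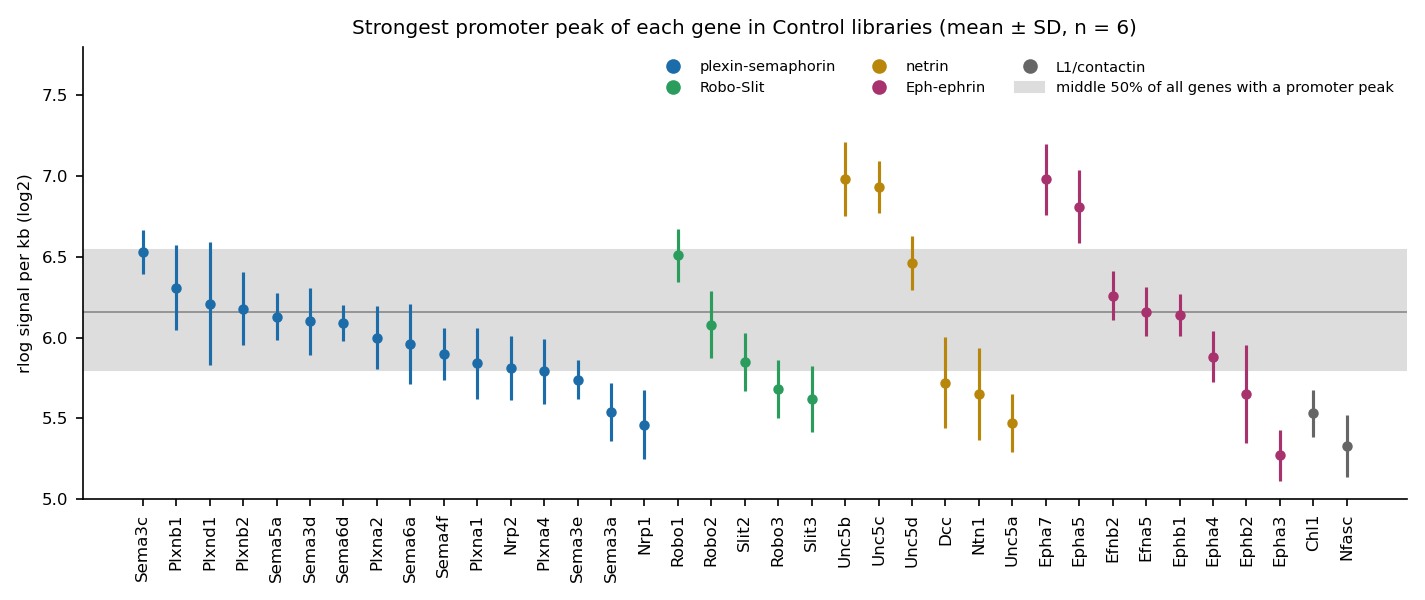
Accessibility of the leading promoter site of 37 guidance genes in the Control libraries of both cultures (vertical axis, rlog value per kb of peak, log2 scale), by gene along the horizontal axis and coloured by family. Points are means and bars are ± SD over 6 libraries, the grey band is the middle of all genes from 5.80 to 6.54 with a line at their median of 6.16, and Epha7 and Unc5b stand highest with 6.98 while Epha3 stands lowest with 5.27.

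The effect of Neurog2 on these sites was read first as an average over 4 settings, the differences Neurog2+Hmgb2 minus Hmgb2 and Neurog2 minus Control in each culture, so that all 25 libraries contribute. Of the 173 guidance sites, 20 rose and 19 fell (limma, adjusted p under 0.05 over all 45672 peaks). These 39 sites of 23 genes were 22.5% of the guidance sites, and 22.0% of all peaks passed (5211 or 11.4% higher, 4836 or 10.6% lower), so the share was close to the background. The median difference was 0.004. The changes sat mostly away from the promoters, as they did over all peaks. Of the 63 promoter sites 2 rose and 2 fell, 6.35% against 8.59% of all promoter peaks, and of the 110 distal sites 18 rose and 17 fell, 31.8% against 27.7% of all distal peaks within 100 kb. Among the 42 sites at 50 to 100 kb from the start site, 10 rose and 8 fell, 42.9% against 29.5% of all peaks at that distance. Among the 68 sites at 3 to 50 kb, 8 rose and 9 fell, 25.0% against 27.1%. Of the 37 leading promoters 1 passed, that of Plxnb1, and 35 differed by less than 0.2 in either direction. With array weights the count was 60 (34.7%, against 31.4% of all peaks), and within 50 kb it was 21 of 131 sites (16.0%, against 18.1% of all peaks at that distance).

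**Figure D2:**
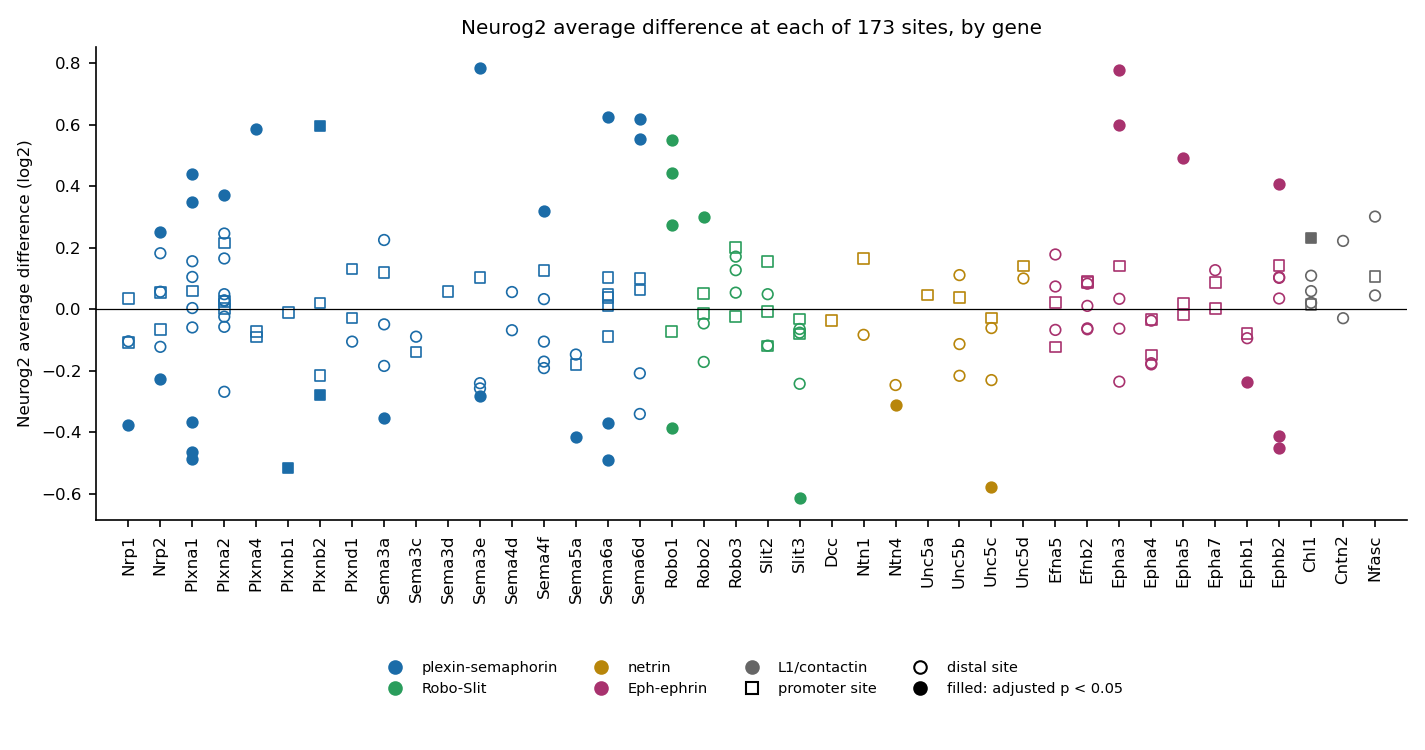
Neurog2 average difference (vertical axis, log2) at each of the 173 guidance sites, by gene along the horizontal axis and coloured by family, with squares for promoter sites, circles for distal sites and filled marks where the adjusted p is under 0.05. The values run from -0.614 at Slit3 site 1 to 0.782 at Sema3e site 4, and the 20 filled marks above 0 and the 19 below it are mostly circles.

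Read by role, the changes were spread over receptors and ligands in the plexin-semaphorin family, and in the Robo-Slit and Eph-ephrin families all but 1 were at receptors. The plexin-semaphorin family, with neuropilins, had 11 rises and 12 falls among 83 sites (27.7%, median difference 0.003). Plexins had 5 rises and 5 falls among 34 sites, semaphorins 5 and 5 among 38, and neuropilins 1 and 2 among 11. Robo-Slit sites had 4 rises and 2 falls among 26 (23.1%, median -0.018), and the rises were all at Robo receptors, with 4 and 1 among 15 sites, while the 11 Slit sites had 1 fall. Eph-ephrin sites had 4 rises and 3 falls among 38 (18.4%, median 0.015), all 7 at the 27 Eph receptor sites and none at the 11 ephrin sites. The 16 netrin sites had 2 falls (12.5%, median -0.049), 1 at Ntn4 and 1 at the receptor Unc5c. The 10 sites of L1 and contactin genes had 1 rise (10.0%, median 0.083). The differences between families and between roles were not tested.

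**Figure D3:**
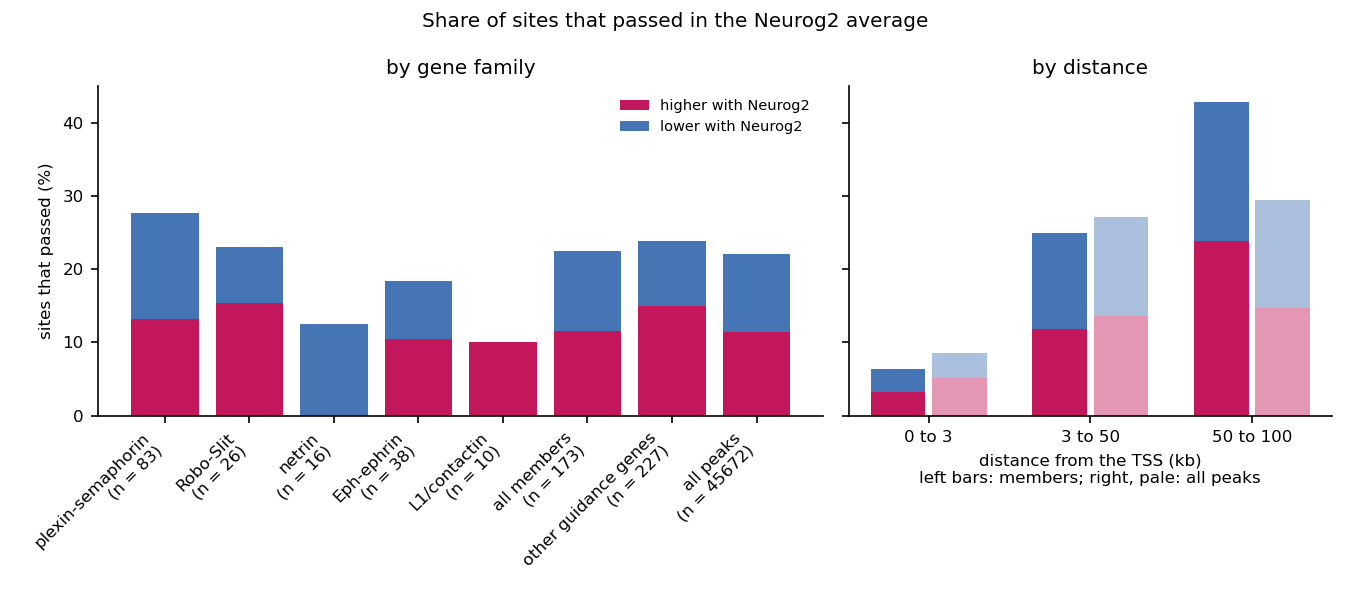
Percent of sites that passed in the Neurog2 average (vertical axis), stacked as higher and lower with Neurog2, by gene family on the left and by distance from the start site on the right, where the pale bars are all peaks. Plexin-semaphorin sites reach 27.7% against 22.0% of all peaks, and guidance sites at 50 to 100 kb reach 42.9% against 29.5%.

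One gene often carried sites that moved in opposite directions. Of the 9 guidance genes with at least 2 called sites, 7 had both a rise and a fall (77.8%), as had 824 of 1558 genes over the whole table (52.9%). Plxna1, a receptor for class 3 and class 6 semaphorins, had 2 rises and 3 falls among its sites. Robo1, the receptor through which Slits repel commissural axons, had 3 rises and 1 fall. Ephb2 had 1 and 2, Sema6a 1 and 2, and Nrp2, Plxnb2 and Sema3e had 1 of each. Epha3 and Sema6d had 2 rises each and no fall. No test was made of the share of genes with both directions.

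E-boxes stood in most of the sites that rose and in a minority of those that fell, a difference that was not tested. CAGATG or CAGCTG stood in the central 300 bases of 14 of the 20 sites that rose (70.0%), of 6 of the 19 that fell (31.6%) and of 60 of the other 134 (44.8%). Over all peaks with a window (45565), the share was 43.2%, and it was 80.9% of all that rose, 30.1% of all that fell, 29.7% of promoter peaks and 50.4% of distal peaks within 100 kb. CAGATG alone, searched on both strands, was in 60.0% of the guidance sites that rose and in 15.8% of those that fell, against 61.3% and 16.6% over all peaks. ATGCAAAT was in 1.73% of guidance sites and 1.90% of all peaks. TGANTCA, whose ends can overlap a CAGATG, was in 4 of the 20 rises (20.0%) and 6 of the 19 falls (31.6%), against 20.3% and 43.4% over all peaks. A match is a string of letters, and binding was not measured.

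In EGF+bFGF culture, the question was which guidance sites differ once Neurog2, alone or with Hmgb2, is set against Control. With Neurog2, 7 sites rose and 1 fell, 4.62% of the guidance sites against 5.01% of all peaks, of which 3.94% rose and 1.07% fell (median difference 0.012, 30 sites at unadjusted p under 0.05). With Neurog2+Hmgb2, 8 rose and 3 fell, 6.36% against 5.04% of all peaks, of which 3.97% rose and 1.07% fell (median -0.006, 32 sites at unadjusted p under 0.05). A rise above 1, a doubling, was passed by 1 guidance site with Neurog2 (0.766% of all peaks) and by 2 with Neurog2+Hmgb2 (0.698% of all peaks). Plexin-semaphorin sites, 83 of the 173, made up 5 of the 8 calls with Neurog2 and 6 of the 11 with Neurog2+Hmgb2. The 26 Robo-Slit sites had 2 and 2, the 38 Eph-ephrin sites 1 and 2, and the 16 netrin sites 0 and 1. Differences between families were not tested here either. The 8 calls became 3 without Control replicate 1 (1.73%, against 2.91% of all peaks in the same fit). They became 4 without Neurog2 replicate 1 (2.31% against 1.85%) and 4 without Neurog2 replicate 2 (2.31% against 2.82%). The 11 calls became 7 without Control replicate 1 (4.05% against 2.68%) and 5 without Control replicate 3 (2.89% against 2.96%). Without Neurog2+Hmgb2 replicate 3 they became 4 (2.31% against 1.68%).

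In bFGF culture, 1 site rose with Neurog2, 0.578% of the guidance sites against 1.25% of all peaks, with 0.898% higher (median -0.048, 23 sites at unadjusted p under 0.05). With Neurog2+Hmgb2, 7 rose and 3 fell, 5.78% against 3.06% of all peaks, of which 2.59% rose and 0.464% fell (median -0.007, 25 sites at unadjusted p under 0.05). These 10 sites were 8 of the 83 plexin-semaphorin sites and 2 of the 38 Eph-ephrin sites. The single call with Neurog2 was lost without any one of the 3 Control libraries or without Neurog2 replicate 2. In those fits 0.344% to 0.769% of all peaks passed. Without Neurog2 replicate 1, 6 sites (4 higher, 2 lower) passed (3.47%, against 2.34% of all peaks). The 10 calls became 3 when Control replicate 1 or Control replicate 3 was left out (1.73%, against 1.78% and 1.83% of all peaks). Without Control replicate 2 they became 7 (4.05% against 1.76%). Of the Neurog2+Hmgb2 libraries, leaving out replicate 1 gave 6 (3.47% against 2.54%) and replicate 2 gave 3 (1.73% against 1.52%). Leaving out replicate 3 gave 4 (2.31% against 1.33%).

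Across the 4 comparisons with Control, 17 sites of 14 genes passed at least once (9.83%, against 8.36% of all peaks), 12 of them higher and 5 lower. Of the 17, 2 were promoter sites and 15 distal. 7 passed in 1 comparison, 7 in 2 and 3 in 3, and none passed in all 4 (0.451% of all peaks did). 7 passed with Neurog2+Hmgb2 in both cultures (4.05%, against 1.97% of all peaks) and none with Neurog2 in both (0.541% of all peaks), and within a culture the comparisons share their Control libraries. The difference in the effect of Neurog2 between the cultures, tested by itself, passed at no guidance site (limma, 0 of 173 sites, 0% of all peaks, 18 sites at unadjusted p under 0.05).

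**Figure D4:**
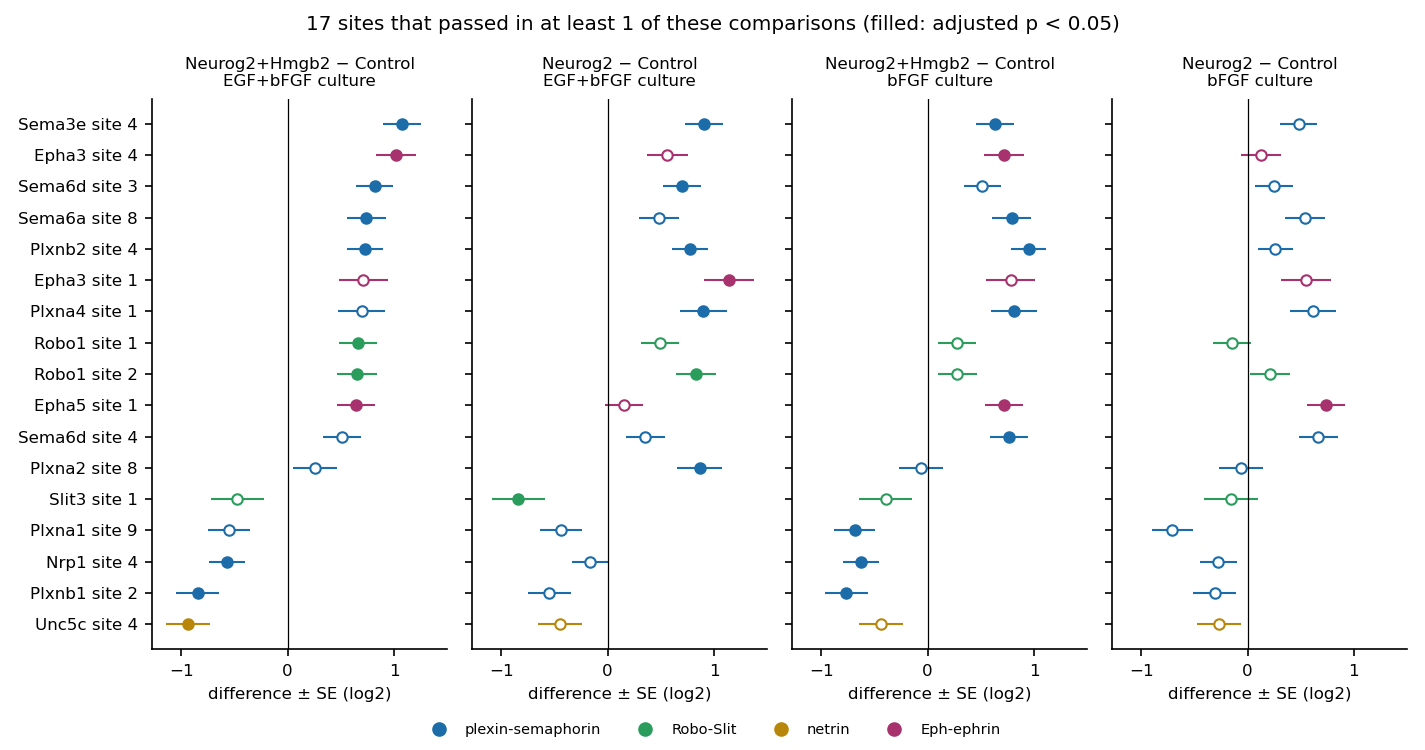
Log2 difference from Control ± SE (horizontal axis) at the 17 sites that passed in at least 1 of 4 comparisons (rows), with 1 panel each for Neurog2+Hmgb2 and Neurog2 in EGF+bFGF culture and then in bFGF culture, coloured by family and filled where the adjusted p is under 0.05. Of the sites, 12 lie above 0 wherever they passed and 5 lie below, and the bFGF panel of Neurog2 has 1 filled mark, that of Epha5 site 1.

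Among the plexins, the receptors that semaphorins bind, Plxnb2 site 4 (chr15:89182313-89182917) rose in 3 of the 4 comparisons. It is a promoter site 1.52 kb from a start of Plxnb2, a receptor for class 4 semaphorins that is strong in neural progenitors, and it is centred on an untranslated exon of the neighbouring gene Dennd6b. In EGF+bFGF culture it was at 5.17, 4.91 and 5.43 with Neurog2+Hmgb2, at 5.36, 4.99 and 5.30 with Neurog2, at 4.54, 4.55, 4.28 and 4.61 with Hmgb2 and at 4.16, 4.68 and 4.49 with Control. Its bFGF values were 5.27, 5.27 and 5.41 with Neurog2+Hmgb2, 4.54, 4.82 and 4.53 with Neurog2, 4.63, 4.47 and 4.82 with Hmgb2 and 4.22, 4.47 and 4.40 with Control. All Neurog2+Hmgb2 libraries stood above all Control libraries in both cultures, and in bFGF culture they also stood above all Neurog2 libraries. The differences from Control were 0.725 (adjusted p = 0.00806) with Neurog2+Hmgb2 and 0.772 ± 0.167 (SE, adjusted p = 0.00496) with Neurog2 in EGF+bFGF culture. In bFGF culture they were 0.949 (adjusted p = 0.00144) with Neurog2+Hmgb2 and 0.261 (adjusted p = 0.509) with Neurog2. Neurog2+Hmgb2 differed from Neurog2 by 0.688 ± 0.167 in bFGF culture (adjusted p = 0.452), which did not pass, and the difference of this step between the cultures, 0.735 ± 0.236, did not pass either (adjusted p = 1.0). The calls in EGF+bFGF culture were lost without Control replicate 1 (adjusted p = 0.0521 with Neurog2 and 0.0806 with Neurog2+Hmgb2), and that with Neurog2+Hmgb2 also without Neurog2+Hmgb2 replicate 3 (adjusted p = 0.0991). The other promoter sites of Plxnb2 did not follow it. Plxnb2 site 3, the leading promoter site, did not pass, and Plxnb2 site 1 fell in the Neurog2 average by 0.280 (log2).

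Plxnb1, a receptor for Sema4d, has a pair of promoter sites, of which site 2 fell and site 1, over a start site, did not pass (average -0.01, adjusted p = 0.954). Plxnb1 site 2 (chr9:109097360-109099263) lies in an intron 0.65 kb from a start site. In EGF+bFGF culture it was at 6.55, 6.84 and 6.25 with Neurog2+Hmgb2, at 6.64, 7.01 and 6.88 with Neurog2, at 7.39, 7.05, 6.85 and 6.87 with Hmgb2 and at 7.24, 7.40 and 7.54 with Control. Under bFGF alone the values were 6.26, 6.65 and 6.07 with Neurog2+Hmgb2, 7.21, 6.24 and 6.90 with Neurog2, 7.15, 6.95 and 7.01 with Hmgb2 and 7.23, 7.28 and 6.76 with Control. The Neurog2+Hmgb2 libraries were below all Control libraries in both cultures, and the Neurog2 libraries overlapped with Control in bFGF culture. The difference with Neurog2+Hmgb2 was -0.846 (adjusted p = 0.0112) in EGF+bFGF culture and -0.765 (adjusted p = 0.032) in bFGF culture, and with Neurog2 it was -0.549 ± 0.203 (adjusted p = 0.128) and -0.308 (adjusted p = 0.527). The call in EGF+bFGF culture was lost without Control replicate 3 (adjusted p = 0.0628) or Neurog2+Hmgb2 replicate 3 (adjusted p = 0.12). That in bFGF culture was lost without Control replicate 1, Control replicate 2, Neurog2+Hmgb2 replicate 1 or Neurog2+Hmgb2 replicate 3 (adjusted p 0.0936 to 0.193). The Neurog2 average was -0.515 ± 0.1 (adjusted p = 0.00029), the largest change of a leading guidance promoter.

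Class A plexins, which pair with neuropilins, changed at distal sites. Plxna2 site 8 (chr1:194629156-194629666), in an intron 9.33 kb from the start, was at 4.75, 4.58 and 4.92 with Neurog2+Hmgb2, at 5.25, 5.54 and 5.29 with Neurog2 and at 4.36, 4.52 and 4.61 with Control in EGF+bFGF culture. There the Neurog2 libraries were above both other groups. It rose with Neurog2 by 0.864 ± 0.208 (adjusted p = 0.0114), whereas the difference was 0.255 with Neurog2+Hmgb2 (adjusted p = 0.654), and -0.063 with Neurog2+Hmgb2 and -0.061 with Neurog2 in bFGF culture. The call was lost without Control replicate 1 (adjusted p = 0.0622) or Neurog2 replicate 2 (adjusted p = 0.0695), and neither the step from Neurog2 to Neurog2+Hmgb2 (-0.609, adjusted p = 0.956) nor the difference between the cultures (-0.925 ± 0.294, adjusted p = 0.718) passed.

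Plxna4 site 1 (chr6:32520120-32520519), in an intron 67.7 kb from the start, was at 4.55, 5.23 and 4.90 with Neurog2+Hmgb2, at 5.09, 5.31 and 4.89 with Neurog2 and at 3.95, 4.41 and 4.23 with Control in EGF+bFGF culture. After bFGF expansion it stood at 4.65, 5.36 and 4.74 with Neurog2+Hmgb2, at 4.92, 4.63 and 4.62 with Neurog2 and at 3.74, 4.49 and 4.09 with Control. Both Neurog2 groups stood above Control without overlap in each culture. The site passed with Neurog2 in EGF+bFGF culture (0.901 ± 0.22, adjusted p = 0.013) and with Neurog2+Hmgb2 in bFGF culture (0.812, adjusted p = 0.0366). The first of these calls was lost without Control replicate 1, Neurog2 replicate 1 or Neurog2 replicate 2 (adjusted p 0.0574 to 0.0849), and the other without Control replicate 1, Control replicate 3, Neurog2+Hmgb2 replicate 2 or Neurog2+Hmgb2 replicate 3 (adjusted p 0.0671 to 0.261). Plxna1 fell at 3 sites in the average. Plxna1 site 4, in an intron 12.2 kb from the start, had an average of -0.365 (adjusted p = 0.00148). Its sites 9 and 10, which sit in introns of the neighbouring gene Chchd6 at 90.3 and 99.4 kb, averaged -0.463 and -0.486 with Neurog2. Site 9 was at 4.23, 4.71 and 4.60 with Neurog2+Hmgb2 and at 5.25, 4.94 and 5.41 with Control in bFGF culture (-0.685, adjusted p = 0.0468), with no overlap. That call was lost without any one of these libraries other than Control replicate 2 (adjusted p 0.0626 to 0.221), in the fit of the compared groups alone (adjusted p = 0.0572) and without the lowest 25% of peaks (adjusted p = 0.055). Its sites 1 and 2 rose in the average, by 0.348 and 0.439.

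Semaphorins, the ligands of the plexins, held the site with the smallest p-value of all 173 in the Neurog2 average. Sema3e site 4 (chr5:14039111-14039488) lies in an intron 13.8 kb from the start of Sema3e, a secreted cue that signals through Plxnd1. In EGF+bFGF culture it was at 4.98, 4.77 and 4.95 with Neurog2+Hmgb2, at 4.85, 4.72 and 4.61 with Neurog2, at 3.78, 3.82, 3.62 and 3.79 with Hmgb2 and at 3.60, 4.11 and 3.77 with Control. In the bFGF libraries it read 4.29, 4.66 and 4.63 with Neurog2+Hmgb2, 4.32, 4.01 and 4.79 with Neurog2, 4.03, 3.91 and 3.86 with Hmgb2 and 3.82, 3.80 and 4.06 with Control. In EGF+bFGF culture every library with Neurog2 exceeded every library without it, and in bFGF culture 1 Neurog2 library, at 4.01, lay within the range of the others. The differences from Control were 1.08 (adjusted p = 0.00043) with Neurog2+Hmgb2 and 0.905 ± 0.176 (adjusted p = 0.00201) with Neurog2 in EGF+bFGF culture. In bFGF culture they were 0.635 (adjusted p = 0.0418) with Neurog2+Hmgb2 and 0.48 (adjusted p = 0.18) with Neurog2. The Neurog2 average was 0.782 ± 0.087 (adjusted p = 8.25e-08), and no call in EGF+bFGF culture was lost by leaving out a library. The call in bFGF culture was lost without any one of the 6 libraries other than Neurog2+Hmgb2 replicate 1 (adjusted p 0.055 to 0.176), and with the compared groups alone (adjusted p = 0.078), median centring (adjusted p = 0.0527), quantile normalization (adjusted p = 0.0712) or array weights (adjusted p = 0.0541).

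**Figure D5:**
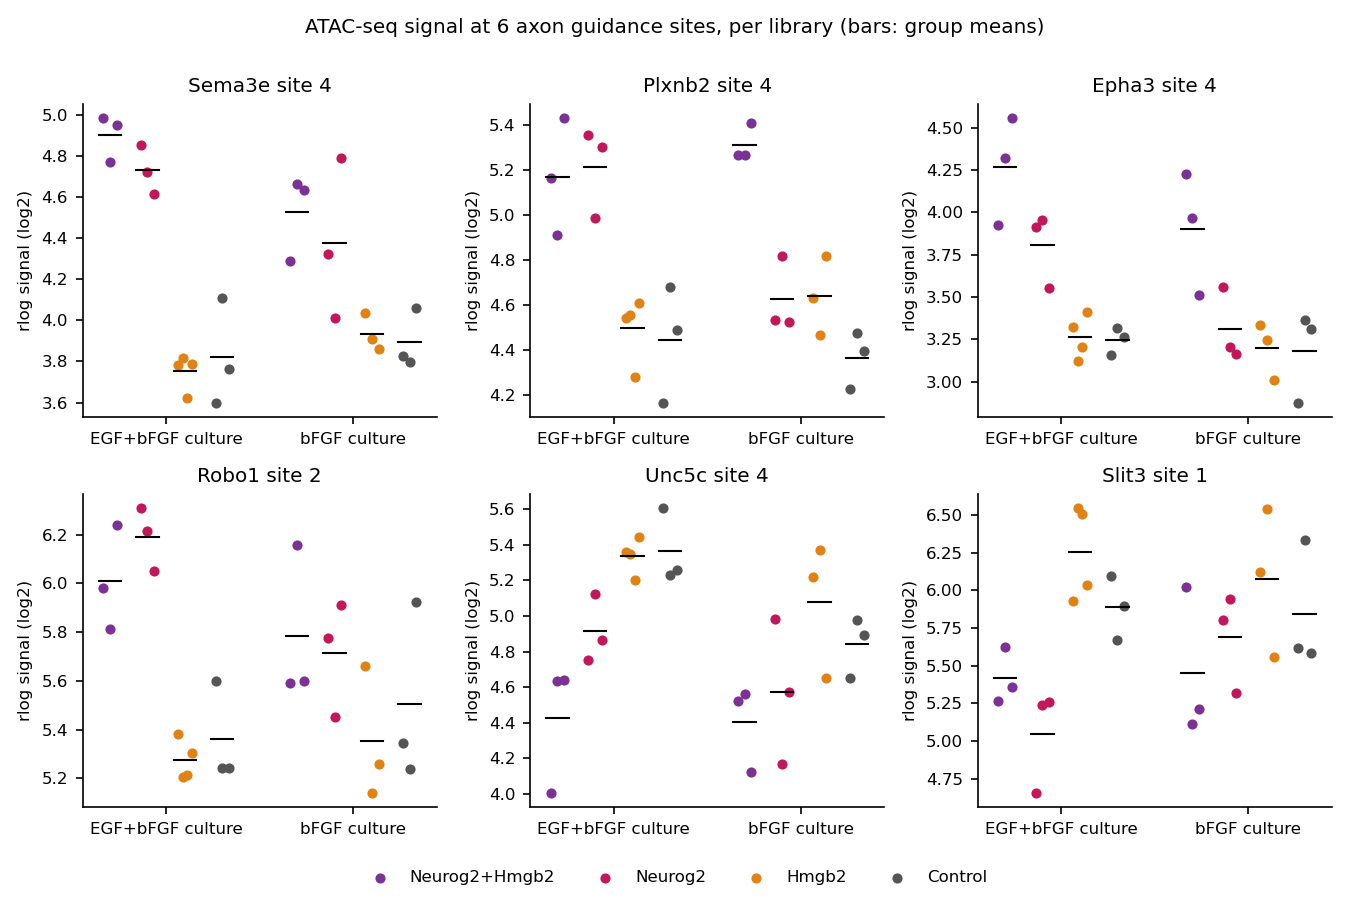
Rlog value (vertical axis, log2) in each library at 6 guidance sites, 1 panel per site, with Neurog2+Hmgb2, Neurog2, Hmgb2 and Control from left to right within each culture. Points are libraries and bars are group means, and at Sema3e site 4 the 6 libraries of EGF+bFGF culture with Neurog2 lie between 4.61 and 4.98 while the 7 without lie between 3.60 and 4.11.

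Sema6d and Sema6a, transmembrane semaphorins that bind class A plexins, rose at distal sites. Sema6d site 3 (chr2:124130992-124131401), in an intron 41.0 kb from a start, was at 4.92, 4.63 and 5.01 with Neurog2+Hmgb2, at 4.67, 4.81 and 4.73 with Neurog2 and at 3.82, 4.12 and 4.17 with Control in EGF+bFGF culture. Both Neurog2 groups stood above Control, and the site rose by 0.818 (adjusted p = 0.00509) with Neurog2+Hmgb2 and by 0.701 ± 0.177 (adjusted p = 0.0165) with Neurog2. The call with Neurog2+Hmgb2 was lost without Neurog2+Hmgb2 replicate 3 (adjusted p = 0.0533), and that with Neurog2 without Control replicate 1, Neurog2 replicate 1 or Neurog2 replicate 2 (adjusted p 0.0551 to 0.107). Sema6d site 4 (chr2:124524237-124524549), in an intron 85.7 kb from a start, was at 3.01, 3.50 and 3.51 with Neurog2+Hmgb2, at 2.94, 3.18 and 3.60 with Neurog2 and at 2.46, 2.63 and 2.64 with Control in bFGF culture. It rose there with Neurog2+Hmgb2 (0.763, adjusted p = 0.0151) and missed the threshold with Neurog2 (0.665 ± 0.181, adjusted p = 0.0593). The call was lost without Control replicate 1, Neurog2+Hmgb2 replicate 2 or Neurog2+Hmgb2 replicate 3 (adjusted p 0.0714 to 0.101), and the comparison with Neurog2 passed without Neurog2 replicate 1 (adjusted p = 0.0226).

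Sema6a site 8, intergenic at 66.1 kb, was at 4.06, 4.22 and 4.42 with Neurog2+Hmgb2 and at 3.55, 3.76 and 3.17 with Control in EGF+bFGF culture. Its bFGF values were 4.00, 4.68 and 4.07 with Neurog2+Hmgb2 and 3.48, 3.47 and 3.42 with Control. The groups were apart in both cultures, and the site rose by 0.74 ± 0.186 (adjusted p = 0.0153) and by 0.789 (adjusted p = 0.0143). The call in EGF+bFGF culture was lost without Control replicate 3 (adjusted p = 0.12) or Neurog2+Hmgb2 replicate 3 (adjusted p = 0.121), and that in bFGF culture without Control replicate 3 (adjusted p = 0.0551) or Neurog2+Hmgb2 replicate 2 (adjusted p = 0.145). Sema6a sites 1 and 2 went the other way in the average, at -0.370 and -0.489. The remaining semaphorin changes in the average were a rise at Sema4f site 3 (0.320) and falls at Sema5a site 3 (-0.414), Sema3a site 1 (-0.352) and Sema3e site 2 (-0.281), the last of which was lost in 4 of 25 fits without 1 library (adjusted p up to 0.0612).

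Of the neuropilins, the co-receptors of class 3 semaphorins, Nrp1 fell at site 4 (chr8:128428888-128429625), in an intron 69.6 kb from the start. It was at 5.01, 5.10 and 5.12 with Neurog2+Hmgb2 and at 5.75, 5.34 and 5.87 with Control in EGF+bFGF culture, and at 5.14, 4.95 and 4.84 with Neurog2+Hmgb2 and at 5.41, 5.50 and 5.91 with Control in bFGF culture. Neurog2+Hmgb2 libraries were the lower in both cultures without overlap (-0.574 ± 0.17, adjusted p = 0.0448, and -0.629, adjusted p = 0.0364). The call in EGF+bFGF culture was lost without any one of the 6 libraries other than Control replicate 2 (adjusted p 0.0962 to 0.206), and in bFGF culture without Control replicate 2, Control replicate 3, Neurog2+Hmgb2 replicate 2 or Neurog2+Hmgb2 replicate 3 (adjusted p 0.0639 to 0.215) and with the compared groups alone (adjusted p = 0.0685). With Neurog2 the differences were -0.163 and -0.274, which did not pass. Nrp2 had a rise at site 7 (0.250) and a fall at site 6 (-0.226) in the average, lost in 14 and 4 of 25 fits without 1 library (adjusted p up to 0.0908 and 0.0637) and, for site 7, with array weights (adjusted p = 0.0916).

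Robo1 carried most of the changes among Robo and Slit genes. Robo1 site 2 (chr16:72510445-72511363), 52.3 kb from a start, was at 5.98, 5.81 and 6.24 with Neurog2+Hmgb2, at 6.31, 6.21 and 6.05 with Neurog2, at 5.38, 5.21, 5.21 and 5.30 with Hmgb2 and at 5.60, 5.24 and 5.24 with Control in EGF+bFGF culture. Under bFGF alone the values were 5.59, 6.16 and 5.60 with Neurog2+Hmgb2, 5.78, 5.45 and 5.91 with Neurog2, 5.66, 5.14 and 5.26 with Hmgb2 and 5.35, 5.24 and 5.93 with Control. The groups with and without Neurog2 were apart in EGF+bFGF culture and overlapped in bFGF culture. In EGF+bFGF culture the site rose by 0.65 (adjusted p = 0.0365) with Neurog2+Hmgb2 and by 0.83 ± 0.186 (adjusted p = 0.00671) with Neurog2, against differences of 0.28 and 0.209 in bFGF culture that did not pass. The call with Neurog2 was lost without Neurog2 replicate 1 (adjusted p = 0.0544), and that with Neurog2+Hmgb2 without Control replicate 2, Control replicate 3, Neurog2+Hmgb2 replicate 1 or Neurog2+Hmgb2 replicate 3 (adjusted p 0.0752 to 0.231) and with median centring (adjusted p = 0.0504).

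Robo1 site 1, intergenic at 85.8 kb, was at 4.69, 4.80 and 5.12 with Neurog2+Hmgb2 and at 4.37, 4.15 and 4.12 with Control in EGF+bFGF culture (0.657 ± 0.179, adjusted p = 0.0263). That call was lost without Control replicate 2, Control replicate 3, Neurog2+Hmgb2 replicate 2 or Neurog2+Hmgb2 replicate 3 (adjusted p 0.054 to 0.204). Robo1 site 5 rose in the average by 0.441 ± 0.113 (adjusted p = 0.00475) and Robo1 site 3 fell (-0.386), both in introns. At site 3 the libraries were at 4.07, 4.36 and 4.62 with Neurog2+Hmgb2 and at 5.30, 5.46, 5.13 and 5.06 with Hmgb2 in EGF+bFGF culture. In bFGF culture these groups had means of 4.449 and 5.0. Neurog2 and Control had means of 4.736 and 4.703 in EGF+bFGF culture, which is no fall, and of 4.71 and 4.852 in bFGF culture. The fall at site 3 thus lay mostly in the pairs with Hmgb2. Robo2, the second main Slit receptor, rose at site 1 (0.299), a call lost in 4 of 25 fits without 1 library (adjusted p up to 0.0586). No Robo3 site passed in any comparison. Robo1 site 1 passed in the average as well (0.274, adjusted p = 0.0235), and 4 of 25 such fits lost that call (adjusted p up to 0.0562).

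Of the Slits, the ligands, Slit3 site 1 (chr11:35065841-35066642), intergenic at 54.6 kb, fell. It was at 5.26, 5.62 and 5.36 with Neurog2+Hmgb2, at 4.65, 5.24 and 5.26 with Neurog2, at 5.93, 6.54, 6.51 and 6.04 with Hmgb2 and at 6.09, 5.67 and 5.90 with Control in EGF+bFGF culture. After bFGF expansion it stood at 6.02, 5.11 and 5.21 with Neurog2+Hmgb2, at 5.80, 5.94 and 5.32 with Neurog2, at 6.12, 6.54 and 5.56 with Hmgb2 and at 5.62, 6.33 and 5.59 with Control. The libraries with Neurog2 were below all others in EGF+bFGF culture and overlapped with them in bFGF culture. The Neurog2 average was -0.614 ± 0.124 (adjusted p = 0.000458), the largest fall of a guidance site. Against Control, Neurog2 passed in EGF+bFGF culture (-0.839 ± 0.252, adjusted p = 0.0481), but leaving out any 1 of the 6 libraries ended this call (adjusted p 0.0541 to 0.315), as did a fit without the trend (adjusted p = 0.0544), one without the lowest 25% of peaks (adjusted p = 0.0506) and quantile normalization (adjusted p = 0.0904). No Slit2 site passed in any comparison.

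In the netrin family the changes were few. Unc5c encodes a receptor that turns netrin into a repellent. Unc5c site 4 (chr3:141509650-141510175), 44.1 kb from the start, was at 4.00, 4.63 and 4.64 with Neurog2+Hmgb2, at 4.75, 5.12 and 4.87 with Neurog2, at 5.36, 5.35, 5.20 and 5.44 with Hmgb2 and at 5.60, 5.23 and 5.26 with Control in EGF+bFGF culture. In the bFGF libraries it read 4.52, 4.56 and 4.12 with Neurog2+Hmgb2, 4.98, 4.17 and 4.57 with Neurog2, 5.22, 5.37 and 4.65 with Hmgb2 and 4.65, 4.98 and 4.89 with Control. The Neurog2+Hmgb2 libraries were below Control in both cultures, and the Neurog2 libraries overlapped with Control in bFGF culture. It fell with Neurog2+Hmgb2 in EGF+bFGF culture (-0.939 ± 0.207, adjusted p = 0.00577), while the difference in bFGF culture was -0.44 (adjusted p = 0.33), and those with Neurog2 were -0.452 and -0.267. The call was lost without Control replicate 1 (adjusted p = 0.0503) or Neurog2+Hmgb2 replicate 1 (adjusted p = 0.0525). The Neurog2 average was -0.577 ± 0.102 (adjusted p = 9.07e-05). Ntn4, a secreted netrin, fell at site 2 in the average (-0.31, adjusted p = 0.0114). Ntn1, the classical netrin of the floor plate, the receptor Dcc, Unc5a, Unc5b and Unc5d had no site that passed in any comparison.

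Among Eph receptors, Epha3, which binds A-class ephrins, rose at a pair of sites. Epha3 site 1 (chr16:63806404-63806814), in an intron 56.6 kb from the start, was at 4.29, 4.62 and 4.91 with Neurog2+Hmgb2, at 5.37, 4.89 and 4.84 with Neurog2, at 3.98, 3.53, 3.31 and 3.92 with Hmgb2 and at 3.79, 3.94 and 3.96 with Control in EGF+bFGF culture. Its bFGF values were 4.42, 4.80 and 4.26 with Neurog2+Hmgb2, 4.62, 3.68 and 4.48 with Neurog2, 4.29, 3.51 and 4.20 with Hmgb2 and 3.70, 3.71 and 3.73 with Control. The libraries with Neurog2 were above the rest in EGF+bFGF culture, and in bFGF culture Neurog2 replicate 2, at 3.68, was as low as Control. It rose with Neurog2 in EGF+bFGF culture by 1.14 ± 0.233 (adjusted p = 0.00314), a more accessible site by the threshold of 1, and kept this call without each library in turn. With Neurog2+Hmgb2 the differences of 0.712 (adjusted p = 0.0751) and 0.781 (adjusted p = 0.0632) did not pass.

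Epha3 site 4 (chr16:63868060-63868368), intergenic at 3.90 kb, was at 3.92, 4.32 and 4.55 with Neurog2+Hmgb2, at 3.91, 3.95 and 3.55 with Neurog2, at 3.33, 3.12, 3.21 and 3.41 with Hmgb2 and at 3.16, 3.32 and 3.26 with Control in EGF+bFGF culture. Under bFGF alone the values were 4.22, 3.97 and 3.51 with Neurog2+Hmgb2, 3.56, 3.21 and 3.16 with Neurog2, 3.34, 3.25 and 3.01 with Hmgb2 and 2.87, 3.37 and 3.31 with Control. Neurog2+Hmgb2 was above Control in both cultures, and Neurog2 was above Control in EGF+bFGF culture alone without overlap. With Neurog2+Hmgb2 it rose by 1.02 (adjusted p = 0.00144) in EGF+bFGF culture and by 0.717 (adjusted p = 0.0324) in bFGF culture, and with Neurog2 the differences were 0.56 ± 0.191 (adjusted p = 0.0907) and 0.127 (adjusted p = 0.827). The step from Neurog2 to Neurog2+Hmgb2, 0.459 and 0.59, did not pass (adjusted p 0.956 and 0.599). The call in bFGF culture was lost without Control replicate 1, Control replicate 3, Neurog2+Hmgb2 replicate 1 or Neurog2+Hmgb2 replicate 2 (adjusted p 0.057 to 0.189) and with a fit of the compared groups alone (adjusted p = 0.0641).

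Epha5 site 1 (chr5:84397124-84397444), 19.4 kb from a start of another A-class receptor, was at 3.39, 3.31 and 3.03 with Neurog2+Hmgb2, at 2.67, 2.97 and 2.61 with Neurog2 and at 2.59, 2.69 and 2.52 with Control in EGF+bFGF culture. After bFGF expansion it stood at 3.65, 3.07 and 3.47 with Neurog2+Hmgb2, at 3.34, 3.73 and 3.16 with Neurog2 and at 2.71, 2.83 and 2.50 with Control. Neurog2 libraries thus lay near Control in EGF+bFGF culture and above it in bFGF culture. The site passed with Neurog2+Hmgb2 in EGF+bFGF culture (0.643, adjusted p = 0.0297) and in bFGF culture (0.718, adjusted p = 0.0205) and with Neurog2 in bFGF culture (0.734, adjusted p = 0.0338), and not with Neurog2 in EGF+bFGF culture (0.15 ± 0.178, adjusted p = 0.773). Each of these calls depended on which libraries were included. With Neurog2+Hmgb2 in EGF+bFGF culture it was lost without any 1 of the 3 Control libraries, Neurog2+Hmgb2 replicate 1 or Neurog2+Hmgb2 replicate 2 (adjusted p 0.0544 to 0.119). With Neurog2+Hmgb2 in bFGF culture it was lost without Control replicate 1, Control replicate 3, Neurog2+Hmgb2 replicate 1 or Neurog2+Hmgb2 replicate 3 (adjusted p 0.0557 to 0.115). With Neurog2 in bFGF culture it was lost without any 1 of the 3 Control libraries or Neurog2 replicate 2 (adjusted p 0.0549 to 0.142) and with a fit of the compared groups alone (adjusted p = 0.204).

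Ephb2, a B-class receptor, had intron sites of both directions. In the average Ephb2 site 4 fell by 0.451 ± 0.085 (adjusted p = 0.000203) and site 6 fell by 0.410, whereas site 1 rose by 0.406. At site 4 the libraries were at 4.97, 4.62 and 4.85 with Neurog2+Hmgb2, at 4.59, 4.66 and 4.79 with Neurog2, at 5.33, 5.22, 5.05 and 5.38 with Hmgb2 and at 5.14, 5.32 and 5.26 with Control in EGF+bFGF culture. There the libraries with Neurog2 were below all libraries without it. Ephb1 site 2 fell by 0.237 in the average, a call that 9 of 25 fits without 1 library lost (adjusted p up to 0.0845). No site of Epha4, Epha7 or the ephrins Efna5 and Efnb2 passed in any comparison. In the L1 and contactin group, Chl1 site 2, at the promoter of the L1-like gene Chl1, rose in the average by 0.232 ± 0.081 (adjusted p = 0.0372), a call that 11 of 25 fits without 1 library did not keep (adjusted p up to 0.0925).

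The guidance sites that passed in EGF+bFGF culture were then read in the libraries of bFGF culture. The reading is not independent of the choice, because the spread that decided which sites passed came from all 25 libraries. The 11 sites higher with Neurog2 or Neurog2+Hmgb2 in EGF+bFGF culture averaged 4.519, 4.735 and 4.472 in the Neurog2+Hmgb2 libraries of bFGF culture, 4.36, 4.204 and 4.385 with Neurog2, 4.197, 4.045 and 4.076 with Hmgb2 and 3.898, 3.995 and 4.086 with Control. The Neurog2+Hmgb2 libraries were the highest and all Neurog2 libraries exceeded all Control libraries. The median difference from Control was 0.717 with Neurog2+Hmgb2 (10 of 11 sites above 0, 6 or 54.5% passing) and 0.261 with Neurog2 (9 of 11, 1 or 9.09% passing). Over all 2365 peaks chosen in the same way the median was 0.577 with Neurog2+Hmgb2 (97.7% above 0, 39.4% passing) and 0.389 with Neurog2 (92.6% above 0, 11.8% passing). Directly compared, Neurog2+Hmgb2 exceeded Neurog2 by a median of 0.233 at these 11 sites and 0.188 over the 2365 peaks, and no site passed. The 4 sites lower in EGF+bFGF culture averaged 5.485, 5.318 and 5.062 with Neurog2+Hmgb2, 5.848, 5.376 and 5.558 with Neurog2 and 5.727, 6.022 and 5.787 with Control in bFGF culture. Their median differences from Control were -0.534 with Neurog2+Hmgb2 (2 of 4 passing) and -0.271 with Neurog2 (0 of 4 passing), against -0.296 (6.43% passing) and -0.223 (2.07% passing) over all 871 peaks chosen in the same way.

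Hmgb2 without Neurog2 gave no guidance site that passed. Against Control, 0 of 173 sites passed in EGF+bFGF culture (limma, 0.00219% of all peaks, 17 sites at unadjusted p under 0.05) and 0 in bFGF culture (0.00219% of all peaks, 6 sites). The smallest p in EGF+bFGF culture was that of Plxnd1 site 3, the promoter of the Sema3e receptor (-0.577 ± 0.145, adjusted p = 0.529), which was at 5.93, 5.69, 5.70 and 6.10 with Hmgb2 and at 6.34, 6.49 and 6.47 with Control. The libraries did not overlap, but the difference did not hold over 45672 tests. Hmgb2 added to Neurog2 gave 0 of 173 sites in EGF+bFGF culture (0.0153% of all peaks, 12 sites at unadjusted p under 0.05) and 0 in bFGF culture (0% of all peaks, 12 sites). The smallest p were those of Epha4 site 3 in EGF+bFGF culture (-0.562 ± 0.15, adjusted p = 0.949) and of Plxnb2 site 4 in bFGF culture, given above. Averaged over 4 settings, Hmgb2 gave 0 of 173 sites (0.0328% of all peaks, 15 sites at unadjusted p under 0.05), with Plxnb2 site 4 (0.242), Plxnb1 site 2 (-0.29) and Epha3 site 4 (0.271) at adjusted p 0.349 to 0.354.

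None of the 173 guidance sites passed between the cultures. With the Control virus 0 of 173 sites passed between bFGF and EGF+bFGF culture (0% of all peaks, 9 sites at unadjusted p under 0.05), and averaged over 4 viruses 0 passed as well (0.519% of all peaks, 36 sites at unadjusted p under 0.05). In that average Plxna1 site 3 (-0.327 ± 0.087, adjusted p = 0.0609), Robo2 site 2 (-0.384, adjusted p = 0.0618) and Sema6d site 3 (-0.314, adjusted p = 0.0656) lay just outside the threshold. Without bFGF Neurog2 replicate 1 the count was 9, without bFGF Neurog2+Hmgb2 replicate 2 it was 3, and without EGF+bFGF Hmgb2 replicate 2 or bFGF Control replicate 1 it was 1. Over the 25 fits without 1 library the share ran up to 5.2% of guidance sites and from 0.00219% to 6.79% of all peaks. With array weights 5 sites passed (2.89%, against 2.62% of all peaks), all lower in bFGF culture. The difference between the cultures in the step from Neurog2 to Neurog2+Hmgb2 passed at no site (limma, 0 of 173, 0% of all peaks, 8 sites at unadjusted p under 0.05).

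A wider list of guidance genes also changed at a share close to that of all peaks in the average. Of a list of 69 further ligands, receptors and cytoplasmic partners, 59 had a total of 227 sites, and 34 of these rose and 20 fell in the Neurog2 average (23.8%, against 22.0% of all peaks). The largest rises were at intron sites of Slit1, a neural Slit (0.875 ± 0.093 at chr19:41687926-41688782, adjusted p = 4.2e-08, and 0.803), of Mical3, a redox enzyme of the Mical family (0.792), and of Srgap3, a Slit-Robo signalling partner (0.589). The promoter of Sema3g rose by 0.574, and an intron site of Nrcam, an L1-family adhesion gene, fell by 0.611. Against Control in EGF+bFGF culture, 6 rose and 1 fell with Neurog2+Hmgb2 (3.08%, against 5.04% of all peaks) and 9 rose and 1 fell with Neurog2 (4.41%, against 5.01%). In bFGF culture 7 rose and 1 fell with Neurog2+Hmgb2 (3.52%, against 3.06%) and 1 rose with Neurog2 (0.441%, against 1.25%). Between the cultures, averaged over 4 viruses, intron sites of Rgma, Ablim1 and Dscam passed, all lower in bFGF culture. Their differences were -0.378, -0.337 and -0.336 (limma, adjusted p 0.0427 to 0.0489), while 0.519% of all peaks passed.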

How the data were processed

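ATAC-seq libraries of 25 sorted astrocyte samples in 8 groups were analysed. By the labels and the published methods, the authors trimmed reads with cutadapt, aligned them to mm10 with Bowtie2, called peaks with Genrich in its ATAC mode, which sets the intervals at the transposase cut sites, merged them into 1 peak set and deposited rlog values from DESeq2 1.36.0. These values are on a log2 scale, already normalised for library size and shrunken where coverage is low, which draws small differences of weak peaks towards 0. No counts or totals were used, so depth and counting error are unknown, and 0 sample columns were left unused.

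Peaks were assigned to the nearest start of a protein-coding GENCODE M21 transcript from the nearest peak edge, within 100 kb (promoter within 3 kb). limma 3.58.1 in R 4.3.3 was fitted to the rlog values of all 45672 peaks and 25 libraries with 8 group means and a mean-variance trend (17 residual degrees of freedom), with Benjamini-Hochberg adjustment over all peaks in each of 14 comparisons. A site passed at adjusted p under 0.05, and was called more or less accessible with a difference beyond 1 as well. Per comparison, the sites past that difference, up to 4 passing sites per family with the smallest adjusted p, or the 3 with the smallest p where fewer than 3 passed, are named, and each gene's promoter site with the highest mean. Other named sites, the added sequences and TGANTCA were chosen after their values were seen, and the members and lists were chosen with earlier results of these data known. The fit was tested on simulated data. Sequences were read from GRCm38, without sites on chromosome 18 or over untranslated exons, and matches were found with blastn 2.17.0 (E-value limit 1e-10).

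Alternatives were no trend, the compared groups alone, the lowest 25% of peaks left out, median centring, quantile normalization, array weights, a replicate block, sites within 50 kb, 1 start per gene measured from the peak centre, and leaving out each library. Deviations of samples with equal replicate numbers correlated at 0.218 or more in all 3 pairs only for Neurog2 against Control in bFGF culture. There the blocked fit gave 1 call as the unblocked one did. Single pairs of other comparisons reached up to 0.397, so a pairing elsewhere is not settled.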

Additional observations from a re-analysis of the deposited data

Results flagged for a closer look

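In the 4 Hmgb2 libraries of EGF+bFGF culture, 1 library stood apart at a leading promoter of an Eph receptor and at one of an adhesion gene. Epha4 site 4 was at 5.84 in 1 library and at 6.14, 6.15 and 6.20 in the others, and Nfasc site 1 was at 4.27 in 1 library and at 4.80, 4.81 and 4.90 in the others. Among the 65 sets of 4 values examined, chance alone sets 1 library apart in about 1 of 20.

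At 2 of the named sites the Neurog2 libraries stood on opposite sides of Control in the cultures without overlap. Only named sites were examined, and the share over all peaks was not computed. Epha4 site 3 had itself been named for its small p in the difference of the Neurog2 effect between the cultures. Epha4 site 3, in an intron of the receptor Epha4, was at 5.75, 5.68 and 5.75 with Neurog2 and at 5.57, 5.50 and 5.62 with Control in EGF+bFGF culture, and at 4.99, 5.08 and 5.24 with Neurog2 and at 5.32, 5.52 and 5.78 with Control in bFGF culture. The difference between the cultures was -0.6 ± 0.212 (SE), and it did not pass (limma, adjusted p = 0.728). Efnb2 site 4, a site of the ligand ephrin-B2, was at 4.44, 4.67 and 4.38 with Neurog2 and at 4.25, 4.29 and 4.24 with Control in EGF+bFGF culture, and at 3.97, 4.16 and 4.34 with Neurog2 and at 4.67, 4.42 and 4.48 with Control in bFGF culture. Here the difference between the cultures was -0.6 too (adjusted p = 0.733).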

How the results depend on the processing

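Of 98 values at single sites, refitted 2099 times, none changed direction, 150 refits lost a call and 14 gained one. Of the losses, 132 were in fits without 1 library. These totals do not measure how stable a call was. They include values that had not passed and could lose no call, and the Neurog2 average with 25 such fits per site. Calls in a single comparison with Control were lost in a larger share of their fits, as given for the sites above. The counts moved as well. Array weights gave 18 calls in place of 8 for Neurog2 (10.4% of guidance sites, against 10.1% of all peaks in the same fit) and 17 in place of 11 for Neurog2+Hmgb2 in EGF+bFGF culture (9.83% against 8.48%), 10 in place of 1 for Neurog2 in bFGF culture (5.78% against 5.10%), 60 in place of 39 for the Neurog2 average (34.7% against 31.4%) and 5 in place of 0 for the culture average (2.89% against 2.62%). Over all peaks array weights gave 6777 higher and 7560 lower in the Neurog2 average, against 5211 and 4836. The weights of bFGF Neurog2 replicates 1, 2 and 3 were 0.6208, 0.3115 and 3.472, so replicate 3 dominated that group in the weighted fit. Sites within 50 kb, fewer by construction, gave 7 and 4 calls in EGF+bFGF culture for Neurog2+Hmgb2 and Neurog2 (5.34% and 3.05%, against 3.79% of all peaks for each), 5 for Neurog2+Hmgb2 in bFGF culture (3.82% against 2.19%) and 21 for the average (16.0% against 18.1%). Fitting the compared groups alone gave 14 calls for Neurog2 in EGF+bFGF culture (8.09% against 8.25%) and 0 in bFGF culture (0.217% of all peaks). Without the lowest 25% of peaks the counts in bFGF culture were 5 for Neurog2+Hmgb2 (3.60% against 2.86%) and 0 for Neurog2 (1.21% of all peaks). That filter kept 139 of the 173 sites, and a site it removed could not pass. Epha5 site 1, the single call with Neurog2, at 2.47 to 3.74 over the libraries, was among those removed. Median centring gave 2 for Neurog2 (1.16% against 1.62%). Apart from sites that a setting left out, the cause of these shifts was not tested. For the culture average over all peaks, 156 were higher and 81 lower in bFGF culture, a share of 65.8% higher that was 76.3% with median centring, 83.3% with quantile normalization, 44.2% without the lowest 25% and 50.1% with array weights. The fit of compared groups alone does not apply to the 3 averages.

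Leaving out 1 library gave 3 to 8 calls for Neurog2 and 4 to 9 for Neurog2+Hmgb2 in EGF+bFGF culture, 0 to 6 and 3 to 7 in bFGF culture, 35 to 46 for the Neurog2 average, 0 to 9 for the culture average and 0 for the other 8 comparisons. Over all peaks the share in these fits was 1.85% to 4.18% and 1.68% to 4.34% in EGF+bFGF culture, 0.344% to 2.34% and 1.33% to 2.54% in bFGF culture, 18.5% to 23.8% for the Neurog2 average and 0.00219% to 6.79% for the culture average.

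With the replicate block the counts in EGF+bFGF culture were 10 for Neurog2 (5.78%, against 5.82% of all peaks) and 11 for Neurog2+Hmgb2 (6.36%, against 5.39%). In bFGF culture they were 1 (0.578%, against 1.45%) and 8 (4.62%, against 3.15%). The Neurog2 average had 41 (18 higher, 23 lower, 23.7% against 24.2%), and the counts were 0 elsewhere (at most 0.484% of all peaks). The block ended the calls at Chl1 site 2 (0.216, adjusted p = 0.0546) and Nrp2 site 7 (0.238, adjusted p = 0.0592) in the average. It also ended those at Plxna1 site 9 (adjusted p = 0.0559) and Sema3e site 4 (adjusted p = 0.0521) for Neurog2+Hmgb2 in bFGF culture, and no other call at a single site. Hmgb2 replicate 4 of EGF+bFGF culture is alone under its number and adds nothing to that fit. Outside Neurog2 against Control in bFGF culture the correlations of deviations were mixed, from -0.474 to 0.397. Those of Hmgb2 against Control in bFGF culture were 0.0831, 0.397 and 0.337. Whether equal replicate numbers mark a pairing there is not known.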

Other observations

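Nfasc site 3 (chr1:132790939-132791327), intergenic at 49.1 kb from the start of Nfasc, had values from 7.30 to 12.19, and its residual SD of 1.245 ranked 35 among all peaks, against a median of 0.221 over guidance sites and 0.222 over all peaks. Its sequence matched the mitochondrial genome at 92.6% identity over 391 aligned bases. It was at 11.94, 10.30 and 9.68 with Neurog2, at 12.19, 10.82 and 9.32 with Hmgb2 and at 7.30, 9.01 and 9.34 with Control in bFGF culture, and the differences from Control of 2.09 with Neurog2 and 2.23 with Hmgb2 did not pass (limma, adjusted p = 1.0 for Hmgb2). Chl1 site 4 (chr6:103648998-103649347), in an intron of Chl1, had values from 13.41 to 15.04 and ranked 12 among all peaks by its mean. It had 8 other matches in the genome of at least 150 bases and 90% identity, the longest of 246 bases, and it passed in no comparison.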
